A study of Mus musculus with 9 samples.

Results

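The genes described here make up the DNA replication machinery of dividing cells. They were chosen as a list of 51 mouse symbols covering origin licensing, helicase activation, the replication fork, nucleotide supply, entry into S phase and the copying of chromatin. A member counted as measured if 4 or more arrays gave a probe with its symbol a detection p under 0.05. By this rule 43 of the 51 were measured, out of 10096 genes tested, and all 43 but Rfc3 were detected on all 9 arrays. Rfc3 was detected on 3 of the 4 PC61 arrays and on all 5 PBS arrays. The other 8 listed genes, Orc1, Orc2, Gmnn, Pola1, Prim1, Ccne2, Slbp and Hells, have no probe named for them in the annotation used and were not analysed here.

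The samples, labelled as B16 tumour environment, were tissue of B16 tumours, a transplantable mouse melanoma, taken 14 days after inoculation into C57/Bl6 mice that were 8 weeks old. The 4 PC61 samples came from mice given PC61, an antibody against CD25 that the study used to remove regulatory T cells, and the 5 PBS samples came from mice given the saline carrier. All 9 were total RNA of bulk tissue, hybridised to single-colour Illumina bead arrays. The labels state no antibody schedule, and nothing beyond a replicate number says that the samples are separate mice.

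Before a cell divides it copies its genome once. In G1 the origin recognition complex, Cdc6 and Cdt1 load the ring-shaped MCM helicase onto DNA, which licenses the origins. At the start of S phase, E2F transcription factors and cyclin E with its kinase drive the genes of replication, and Cdc45 and the GINS complex turn the loaded helicase on. The clamp PCNA, its loader RFC, the single-strand binder RPA, the polymerases, the nuclease FEN1 and the ligase LIG1 then copy the strands. Ribonucleotide reductase and its partner enzymes supply the deoxynucleotides. In tissue, the RNA of these genes is known as a sign of cells in cycle, so a tumour normally has more of it than resting skin or muscle.

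Each array detected between 18572 and 20742 probes. Il2ra, the CD25 gene, is unnamed among the probes and was not analysed here, while Foxp3, the regulatory T cell factor, averaged 8.73 ± 0.18 in PC61 (SD, n = 4) and 9.05 ± 0.24 in PBS (SD, n = 5) as log2 intensity (limma adjusted p = 0.203). Several lists of tissue markers differed between the groups, where 11.2% of all genes tested were called lower and 15.4% higher. Of 15 measured melanocyte genes, 5 were called lower, 9 were not called and Ednrb was called higher (1.13). Of these 15, 12 were detected on all 9 arrays, and Tyr, Mc1r and Slc45a2 were each missed on 1 PC61 array. The mean of the melanocyte list, as log2 relative to the PBS average, ran from -3.88 to -0.27 in PC61 and from -0.32 to 0.32 in PBS. The skeletal muscle list, with 17 of 18 genes called higher, ran from 1.07 to 2.64 in PC61 and from -0.72 to 0.37 in PBS. The keratinocyte list, with 10 of 12 called higher, ran from 0.85 to 2.63 in PC61 and from -1.47 to 0.92 in PBS. The fibroblast list, with 6 of 11 called higher, ran from 0.47 to 1.30 in PC61 and from -0.79 to 0.43 in PBS, and the adipocyte list, with 2 of 7 called higher, from 0.87 to 2.00 in PC61 and from -0.76 to 1.36 in PBS. Of 6 T cell and 11 macrophage genes 0 were called.

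Replication genes were lower in the PC61 tumours. Of the 43 measured members, 23 fell and 0 rose at a Benjamini-Hochberg adjusted p under 0.05 in limma, and the other 20 did not pass. Over all genes tested, 11.2% were called lower and 15.4% were called higher, 26.5% in either direction. An unadjusted p under 0.05 was found for 35 members and for 41.7% of all genes. The difference was below 0 in all 43 members and in 53.1% of all genes. The median difference was -0.86 over the members and -0.05 over all genes, on the scale of log2 intensity. Called members were 1.54 to 3.21 times lower in PC61, and 7 of them fell by over 1 log2 unit, as did 4.1% of all genes. In 20 members every PC61 array lay below every PBS array, which was the case for 9.96% of all genes. In 0 members did every PC61 array lie above every PBS array, which was the case for 11.3% of all genes. In this bulk RNA, fewer dividing cells, a larger part of other tissue and less of each transcript per cell cannot be told apart.

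The count rested on a single array more than the direction did. Without PC61 replicate 3, 1 of the 43 members (Rfc3) was called lower, near the share of 2.24% over all genes. The adjusted p of the 22 lost calls ran from 0.0514 to 0.112. Over all genes the calls without that array fell to 753, against 2679 with all 9 arrays. All 43 members were below 0 there too, with a median of -0.72. Without PC61 replicate 2 the count was 37, where 17.5% of all genes were called lower. Of the 23 calls, Lig1 and Dctpp1 passed in 1 of the 9 fits that left out an array, and Mcm4 and Ung in 3.

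**Figure D1:**
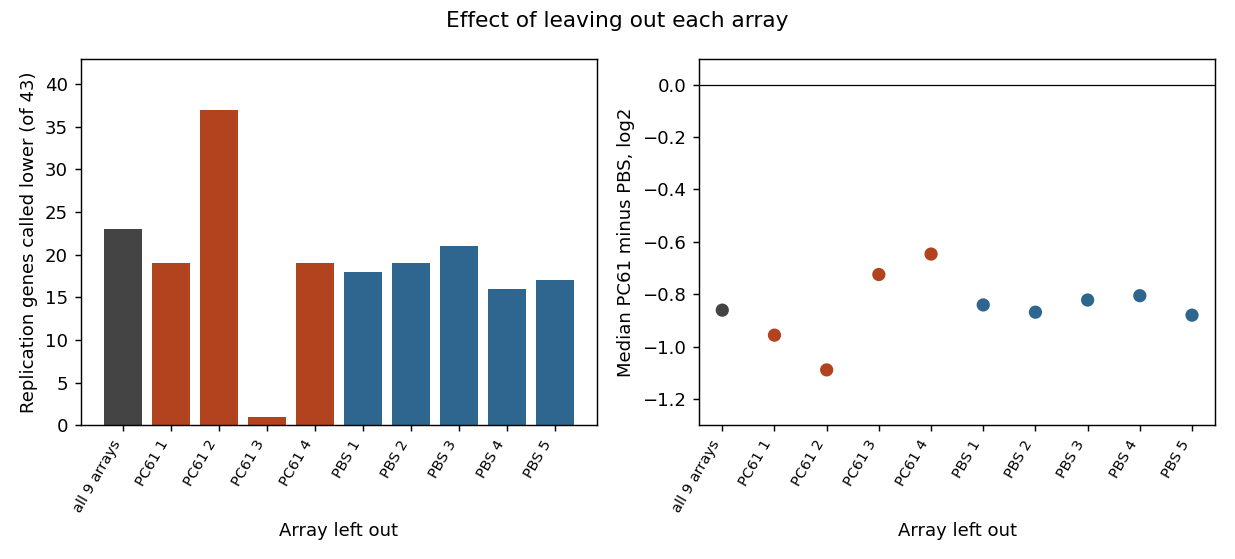
Number of the 43 replication genes called lower (left) and their median difference in log2 intensity (right) with all 9 arrays and with each array left out (red PC61, blue PBS). The count falls to 1 without PC61 replicate 3, while the median stays between -1.09 and -0.65.

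**Figure D2:**
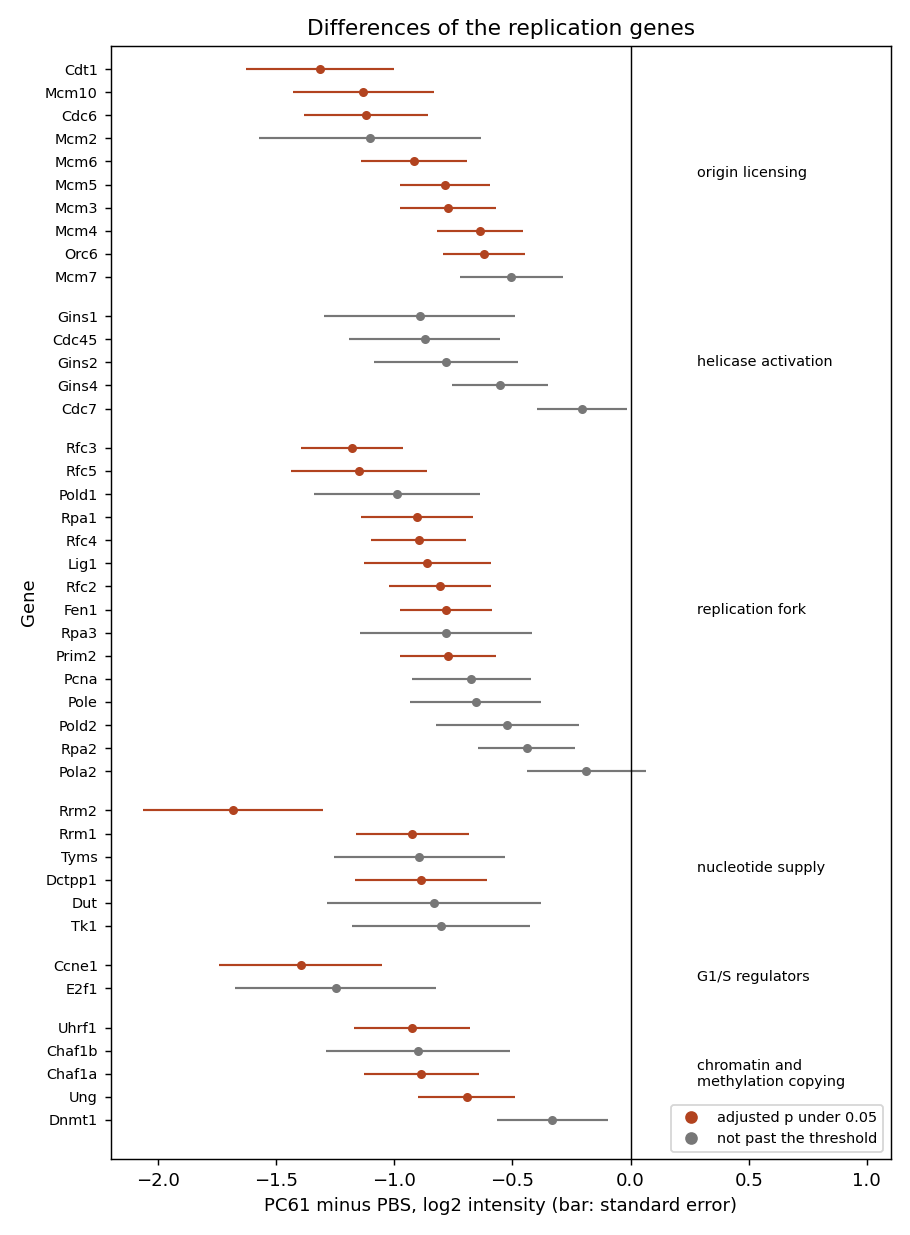
Difference in log2 intensity between PC61 and PBS tumours for the 43 replication genes, in blocks by role, with the standard error of limma as a bar (4 PC61 and 5 PBS arrays). All points lie below 0, from -1.68 for Rrm2 to -0.19 for Pola2, and the 23 genes past the threshold are in red.

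Licensing genes had the highest share of calls among the roles with at least 5 measured genes, with 8 of 10 lower and a median of -0.85. Cdt1, which brings the MCM ring to the origin, had log2 intensities of 9.27, 9.29, 8.24 and 7.81 in PC61, against 10.08, 9.56, 10.15, 9.84 and 10.19 in PBS. All 4 PC61 arrays were below the lowest PBS array, and replicates 3 and 4 were far below replicates 1 and 2. Cdt1 fell by 1.31 ± 0.31 (SE, adjusted p = 0.0172), a 2.49-fold lower level. Cdc6, the ATPase that acts with Cdt1, was at 6.58, 6.88, 6.01 and 5.62 in PC61, against 7.58, 7.19, 7.09, 7.70 and 7.41 in PBS. The groups did not overlap, and the fall was 1.12 ± 0.26 (SE, adjusted p = 0.0168). Mcm10, which helps the licensed helicase to start, was at 8.81, 8.99, 7.66 and 7.81 in PC61, against 9.55, 9.46, 9.08, 9.87 and 9.28 in PBS. It fell by 1.13 ± 0.30 (SE, adjusted p = 0.0226), with PC61 replicate 2 just under the lowest PBS array.

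The 6 subunits of the MCM ring act as a single complex, and 4 of them were called. Mcm6 was at 10.05, 10.12, 9.25 and 9.36 in PC61, against 10.65, 10.81, 10.32, 10.66 and 10.62 in PBS. It fell by 0.92 ± 0.22 (SE, adjusted p = 0.0183), without overlap. Mcm3, Mcm4 and Mcm5 fell by 0.77, 0.64 and 0.79, also without overlap. Mcm2 was at 10.47, 11.09, 8.92 and 8.32 in PC61, against 10.76, 10.90, 10.79, 10.89 and 10.68 in PBS. Its PBS values spanned little, while PC61 replicate 2 was the highest of all 9 arrays and PC61 replicate 4 the lowest. The Mcm2 difference of -1.10 ± 0.47 (SE) did not pass (adjusted p = 0.101), and it was -0.64 without PC61 replicate 4. Mcm7 was at -0.50 ± 0.22 (SE, adjusted p = 0.104). Orc6, a subunit of the origin recognition complex, fell by 0.62 ± 0.17 (SE, adjusted p = 0.0268). Its PC61 values lay within 9.18 to 9.41 and its PBS values within 9.77 to 10.31, so the PC61 arrays lay close together in this gene.

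None of the 5 helicase activation genes was called, although 4 of them had an unadjusted p under 0.05 and the median was -0.78. Cdc45, a subunit of the active helicase, was at -0.87 ± 0.32 (SE, adjusted p = 0.0635). The GINS genes Gins1, Gins2 and Gins4 were at -0.89, -0.78 and -0.55 (adjusted p from 0.0625 to 0.117). Gins4 was the 1 member whose groups did not overlap but which was not called. Gins1 varied more within PBS, from 6.27 to 8.43, than in PC61, from 5.99 to 6.84. Cdc7, the kinase that triggers the helicase, was at 7.58, 7.30, 7.10 and 7.78 in PC61, against 7.84, 7.52, 7.42, 7.75 and 7.70 in PBS. Its difference of -0.21 ± 0.19 (SE, adjusted p = 0.438) was the second smallest of the list, and on PC61 replicate 4 it was higher than on 4 of the 5 PBS arrays.

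At the replication fork 8 of 15 genes fell (median -0.78). All 4 RFC subunits of the list, which belong to the loader of the clamp, were among them. Rfc3 was at 5.53, 5.74, 4.85 and 4.90 in PC61, against 6.28, 6.38, 6.40, 6.56 and 6.55 in PBS. The PBS arrays lay close together and every PC61 array was well below them. Rfc3 fell by 1.18 ± 0.22 (SE, adjusted p = 0.0122), and it was the 1 member whose call held whichever array was left out. As a dim gene missed on 1 PC61 array, its fold of 2.26 is limited by background. Rfc5 was at 8.60, 8.60, 7.49 and 7.34 in PC61, against 9.20, 8.84, 9.27, 9.20 and 9.28 in PBS. It fell by 1.15 ± 0.29 (SE, adjusted p = 0.0195), with a gap of over 1 log2 unit between the higher and the lower pair of PC61 arrays. Rfc4 was at 8.12, 8.06, 7.50 and 7.41 in PC61, against 8.79, 8.54, 8.51, 8.81 and 8.69 in PBS. Rfc4 fell by 0.90 ± 0.20 (SE, adjusted p = 0.0147) and Rfc2 by 0.81 ± 0.22 (SE, adjusted p = 0.0235), and neither overlapped.

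The clamp itself did not pass. Pcna was at 5.77, 6.32, 6.09 and 5.25 in PC61, against 6.84, 6.31, 6.15, 6.45 and 6.90 in PBS. The groups overlapped, since PC61 replicate 2 was above PBS replicates 2 and 3, and the difference was -0.67 ± 0.25 (SE, adjusted p = 0.0679). Mouse pseudogenes of Pcna and Tyms are annotated, and a probe may not separate them from the parent gene, so these values are less certain. RPA coats single-stranded DNA, and its large subunit gene Rpa1 was at 11.25, 11.65, 10.76 and 10.56 in PC61, against 12.05, 11.69, 11.80, 12.18 and 12.04 in PBS. Rpa1 fell by 0.90 ± 0.24 (SE, adjusted p = 0.0221). The smaller subunits Rpa2 and Rpa3 were at -0.44 and -0.78 (adjusted p = 0.125 and 0.129), and Rpa3 was at -0.38 without PC61 replicate 4.

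Of the polymerase genes, Prim2, the large primase subunit, fell by 0.77 ± 0.20 (SE, adjusted p = 0.0224), and its PBS values had an SD of 0.05. Pold1 and Pole, the catalytic subunits of polymerases delta and epsilon, were at -0.99 and -0.66 (adjusted p = 0.0573 and 0.0972). Pold2 was at -0.52, and at -0.21 without PC61 replicate 4. Pold1 was at -0.64 without that array, and Pole at -0.35 without PC61 replicate 3. Pola2, a subunit of the polymerase that starts new strands, had the smallest difference of the list, -0.19 ± 0.25 (SE, adjusted p = 0.601), with PC61 replicate 2 the highest of all 9 arrays, and it was at -0.01 without PC61 replicate 4. Fen1, the flap nuclease, fell by 0.78 and Lig1, the ligase that joins Okazaki fragments, by 0.86 (adjusted p = 0.0192 and 0.0374). The Lig1 groups overlapped by 1 array, and its call was lost in 8 of the 9 fits that left out an array.

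**Figure D3:**
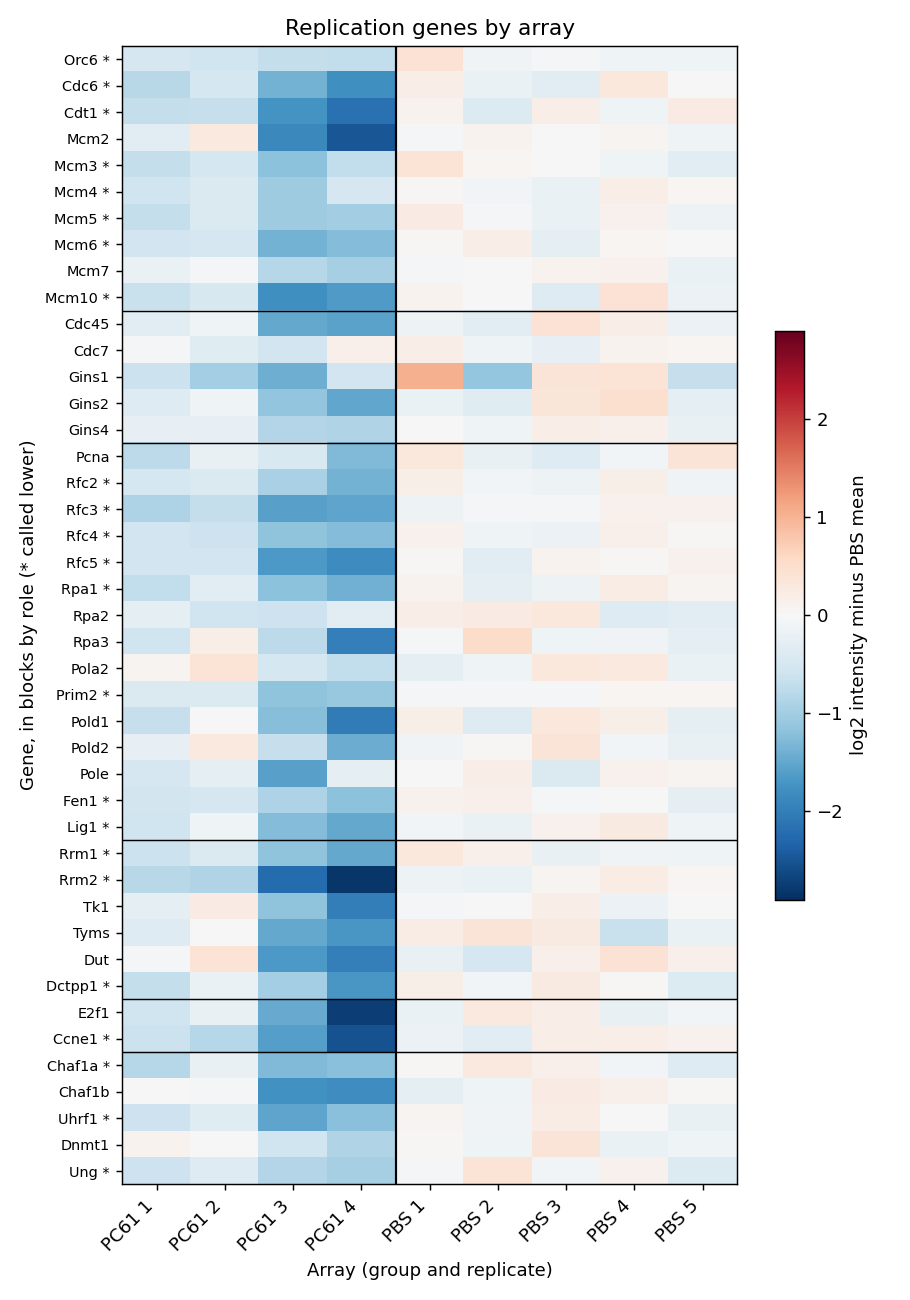
Log2 intensity of each replication gene on each array relative to its PBS mean, with 4 PC61 arrays left of 5 PBS arrays and genes in blocks by role. Blue is lower than the PBS mean, an asterisk marks genes called lower, and PC61 replicates 3 and 4 are the darkest columns.

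Nucleotide supply held the gene that fell most. Rrm2, the S phase subunit of ribonucleotide reductase, was at 9.06, 8.99, 7.63 and 7.05 in PC61, against 9.72, 9.67, 9.95, 10.08 and 9.92 in PBS. The groups were well apart, with PC61 replicates 3 and 4 the lowest, and Rrm2 fell by 1.68 ± 0.38 (SE, adjusted p = 0.0152), a 3.21-fold lower level. Rrm1, the large subunit, was at 9.58, 9.77, 9.03 and 8.72 in PC61, against 10.50, 10.35, 9.97, 10.09 and 10.06 in PBS. Rrm1 fell by 0.92 ± 0.24 (SE, adjusted p = 0.0214), again without overlap. Dctpp1, which breaks down dCTP and altered forms of it, fell by 0.89 (adjusted p = 0.0389). Its groups overlapped, and its call was lost in 8 of the 9 fits that left out an array and with cyclic loess normalization. Tk1, the S phase thymidine kinase, Tyms, which makes thymidylate, and Dut, which removes dUTP, were at -0.80, -0.89 and -0.83 and did not pass (adjusted p from 0.0853 to 0.187). In Tk1 and Dut, PC61 replicates 3 and 4 lay below all PBS arrays, while PC61 replicate 2 was at 11.07 and 9.03, near or above the highest PBS value of 11.03 and 9.06. Without PC61 replicate 4 the difference was -0.40 for Tk1 and -0.44 for Dut.

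Among regulators of S phase entry, Ccne1, cyclin E1, was at 7.13, 6.92, 6.15 and 5.22 in PC61, against 7.57, 7.43, 7.93, 7.93 and 7.88 in PBS. The groups did not overlap, and Ccne1 fell by 1.40 ± 0.34 (SE, adjusted p = 0.0188), a 2.63-fold lower level. E2f1, the factor that turns on many replication genes, was at 9.31, 9.69, 8.43 and 7.16 in PC61, against 9.70, 10.18, 10.09, 9.69 and 9.81 in PBS. PC61 replicate 2 was level with the lowest PBS array. The E2f1 difference of -1.25 ± 0.43 (SE) lay just outside the threshold (adjusted p = 0.0502), and it was -0.75 without PC61 replicate 4.

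The group of genes that copy chromatin and its methylation also held Ung, a uracil glycosylase that copies neither. In this group Uhrf1, which guides the maintenance methyltransferase to new DNA, was at 10.77, 11.01, 9.84 and 10.14 in PC61, against 11.45, 11.26, 11.57, 11.37 and 11.16 in PBS. It fell by 0.92 ± 0.24 (SE, adjusted p = 0.0225) and did not overlap. Dnmt1, that methyltransferase, was at -0.33 ± 0.24 (SE, adjusted p = 0.307), and at -0.15 without PC61 replicate 4. Chaf1a, the large subunit of the histone chaperone CAF-1, fell by 0.89 (adjusted p = 0.0251), and Ung, the uracil glycosylase, fell by 0.69 (adjusted p = 0.0317). Both had 1 PC61 array inside the PBS range, and without PC61 replicate 4 neither passed (adjusted p = 0.0505 and 0.0639). Chaf1b, another CAF-1 subunit, was at -0.90 (adjusted p = 0.103), with PC61 replicates 1 and 2 inside the PBS range and replicates 3 and 4, at 7.86 and 7.81, below its lowest value of 9.33.

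The PC61 arrays differed among themselves in a way that ran through nearly all members. The mean over the 43 genes, as log2 relative to the PBS average, was -0.49, -0.29, -1.20 and -1.39 on PC61 replicates 1 to 4, and between -0.10 and 0.07 on the PBS arrays. Replicate 4 was the lowest of all 9 arrays in 30 members and replicate 3 in the other 13, and in 37 members these arrays were the lowest pair. On replicate 3 all 43 members lay below every PBS array, on replicate 4 there were 39, on replicate 1 there were 35 and on replicate 2 there were 22. The SD was larger in PC61 than in PBS for 39 of 43 members, with medians of 0.51 and 0.23, and for 66.1% of all genes tested, with medians of 0.39 and 0.28.

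The marker lists differed in how they ran across the PC61 arrays. The melanocyte list mean was -0.90, -0.27, -1.39 and -3.88 on PC61 replicates 1 to 4. Between replicates 3 and 4 the melanocyte mean thus differed by far more than the replication mean (-1.20 and -1.39). The skeletal muscle mean was 1.63, 1.07, 2.23 and 2.64 on the same arrays, highest where the replication genes were lowest. The T cell list of 6 genes, none of them called, was at 0.86, 0.01, 0.54 and -1.14, and the macrophage list of 11 genes, also with none called, at 0.42, 0.01, 0.63 and -0.71. Both were above their PBS average on replicate 3 and below it on replicate 4, unlike the replication genes, which were low on both. With the melanocyte mean as a covariate, 37 of 43 members stayed below 0, with a median of -0.48 against 0.006 over all genes. In that fit 0 members were called, while 10 genes were called in the whole table. The melanocyte mean itself differed between the groups, so this fit cannot tell it and the treatment apart. The largest differences in that fit were -1.15 for Gins1, -0.83 for Rfc3 and -0.81 for Rrm2. The part of muscle, skin, fat and fibroblast RNA in the difference was not tested.

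**Figure D4:**
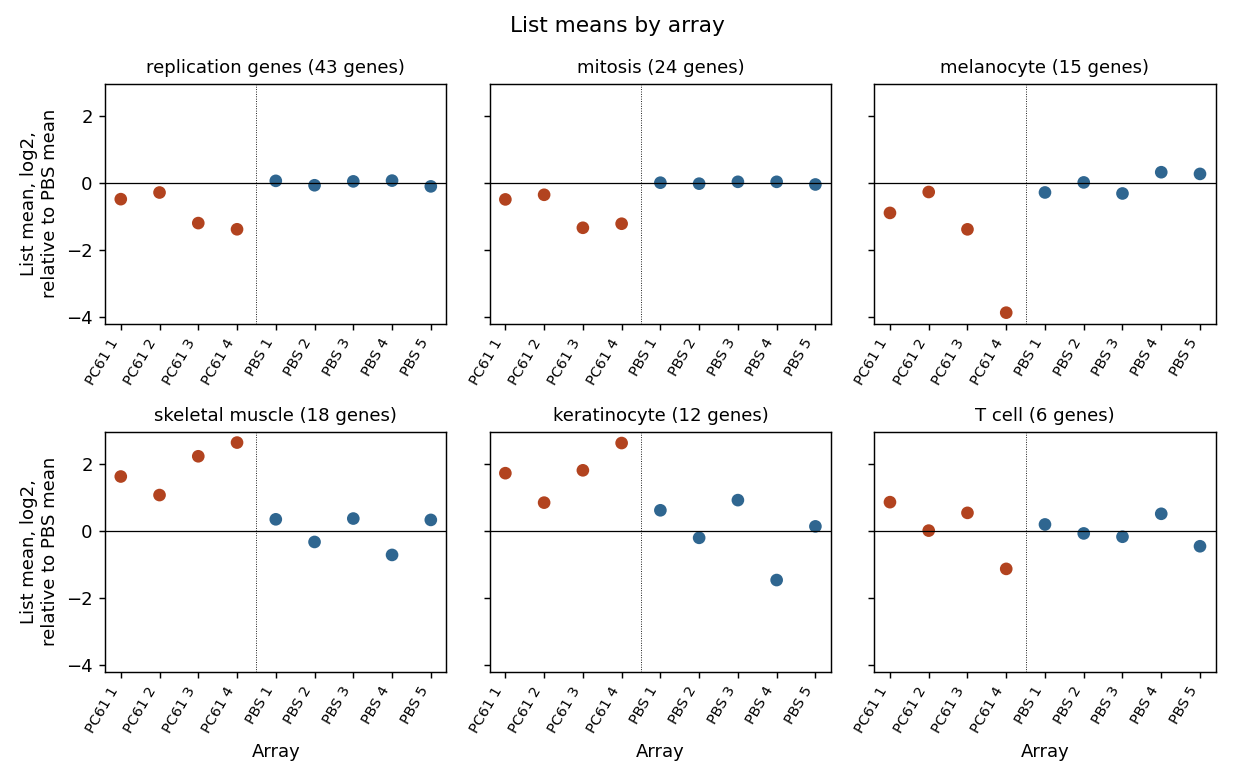
Mean log2 intensity of 6 gene lists on each array relative to the PBS average, with PC61 in red left of PBS in blue. Replication and mitosis means are lowest on PC61 replicates 3 and 4, while the melanocyte mean is far lower on replicate 4 (-3.88) than on replicate 3 (-1.39).

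Other genes of the same pathway came from lists written with earlier results of these data known. Where 11.2% of all genes were called lower and 15.4% higher, 7 of 29 further replication genes measured (24.1%) fell and 0 rose (median -0.49). They included Gins3, the remaining GINS subunit (-1.03, adjusted p = 0.0122), Topbp1, which helps load Cdc45 (-1.06), Dbf4, the activator of Cdc7 (-0.93), and Tipin, a fork protection factor (-0.77). Of 22 further nucleotide enzymes 5 (22.7%) fell and 1 rose (median -0.38). Ppat, Adsl, Pfas and Gmps, enzymes of purine synthesis, fell by 1.23, 0.94, 1.01 and 0.66, and the remaining called gene was Nme1, a nucleoside diphosphate kinase. Other purine synthesis genes of the list did not pass, with Gart at -0.53, Atic at -0.75, Impdh1 at -0.32 and Adss at -0.22 (adjusted p from 0.0851 to 0.560). Ctps, which makes CTP, was the gene that rose (1.35 ± 0.31, SE, adjusted p = 0.0151). The medians of both lists were nearer to the -0.05 of all genes than that of the 43 members was.

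Of 23 measured genes that govern entry into the cycle, 5 fell and 4 rose (median -0.34), where 11.2% of all genes were called lower and 15.4% higher, so the count of higher genes was near the background. E2f3, an activating E2F, fell by 0.86, E2f6, a repressive one, by 0.76, Cdc25a, a phosphatase that activates the S phase kinase, by 0.79, and Cdkn2d, an inhibitor of the cyclin D kinases, by 0.82. Cdkn1c, the inhibitor p57, rose by 1.73 ± 0.38 (SE, adjusted p = 0.0142) and Cdkn2b, the inhibitor p15, by 1.57 ± 0.29 (SE, adjusted p = 0.0122). E2f4, an E2F that acts mostly in resting cells, and Tfdp2, an E2F partner, rose by 0.59 and 0.62. The levels of these genes in muscle or skin were not measured apart.

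Of 24 measured mitosis genes, which act after replication, 16 (66.7%) fell and 0 rose, and the median was -0.84. Over all genes, 11.2% were called lower. Top2a, which untangles DNA, stands in this list and in that of further replication genes. Mad2l1, of the spindle checkpoint, fell by 1.53, Tpx2, a spindle assembly factor, by 0.94, Prc1, which bundles the central spindle, by 0.91, and Kif23, a motor of cell separation, by 0.80. The mitosis mean per array was -0.49, -0.36, -1.34 and -1.22 on PC61 replicates 1 to 4, close to the replication mean on each. A difference between the replication and mitosis lists was not tested.

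Promoter sequence was set beside the differences because E2F factors are known to bind replication genes near their starts. Promoters from RefSeq (GRCm38.p6) were matched for 36 of the 43 members, and the 250 bases before each start were searched on both strands. The E2F forms searched were TTTCCCGC, TTTGGCGC, TTTCGCGC and TTTGCCGC, and a gene with several starts counted if any of them held a match. A match was found in 7 of 36 members (19.4%), in 3.8% of the 8149 genes tested that had a promoter, and in 2.16% of all genes in the table. The share was alike in the further replication genes, with 5 of 25 (20%), and was 2 of 18 (11.1%) in the mitosis genes described above. Among members a match was found in 5 of the 20 called lower and in 2 of the 16 not called, a difference that was not tested. By role, 4 of 9 licensing genes, 2 of 5 chromatin and methylation genes and 1 of 12 fork genes held it. None did among the other roles, with 0 of 6 nucleotide supply genes, 0 of 2 helicase activation genes and 0 of 2 regulators of S phase entry. The CCAAT box, which the factor NF-Y binds, was found in 20 of 36 members (55.6%) and in 39.9% of the genes tested. It was found in 72.2% of the mitosis genes and in 44% of the further replication genes. A match is a description of letters, and its absence from the window says nothing of the factor.

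Shown are the promoters of the 3 called members with an E2F match that fell most, Rfc3, Cdc6 and Uhrf1. Those of the 2 members with the smallest differences, Pola2 and Cdc7, stand beside them. Each ends 1 base before the annotated start, reads 5′ to 3′ on the gene's strand, and has E2F forms and CCAAT boxes in capitals, GCGGGAAA and ATTGG being those on the other strand. For Uhrf1 and Cdc7, which have 2 annotated starts each, 1 is shown. They lie at chr5:151651209-151651458 (Rfc3, minus strand), chr11:98907901-98908150 (Cdc6, plus), chr17:56304063-56304312 (Uhrf1, plus), chr19:5964207-5964456 (Pola2, minus) and chr5:106964072-106964321 (Cdc7, plus) of GRCm38.p6.
Rfc3: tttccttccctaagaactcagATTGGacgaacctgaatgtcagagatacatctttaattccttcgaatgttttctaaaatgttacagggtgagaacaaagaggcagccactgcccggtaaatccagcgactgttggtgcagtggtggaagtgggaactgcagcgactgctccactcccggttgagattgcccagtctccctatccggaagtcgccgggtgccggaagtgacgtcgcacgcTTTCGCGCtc
Cdc6: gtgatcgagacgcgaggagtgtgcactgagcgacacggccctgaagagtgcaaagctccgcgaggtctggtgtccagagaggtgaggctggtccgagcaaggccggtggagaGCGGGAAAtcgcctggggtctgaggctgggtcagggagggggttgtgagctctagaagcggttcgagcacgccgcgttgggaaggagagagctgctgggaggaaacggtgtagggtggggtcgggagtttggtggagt
Uhrf1: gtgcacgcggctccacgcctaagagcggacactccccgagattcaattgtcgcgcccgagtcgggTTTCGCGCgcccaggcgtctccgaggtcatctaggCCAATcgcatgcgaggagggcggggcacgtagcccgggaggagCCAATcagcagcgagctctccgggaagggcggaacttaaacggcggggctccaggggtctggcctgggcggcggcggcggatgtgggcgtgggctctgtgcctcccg
Pola2: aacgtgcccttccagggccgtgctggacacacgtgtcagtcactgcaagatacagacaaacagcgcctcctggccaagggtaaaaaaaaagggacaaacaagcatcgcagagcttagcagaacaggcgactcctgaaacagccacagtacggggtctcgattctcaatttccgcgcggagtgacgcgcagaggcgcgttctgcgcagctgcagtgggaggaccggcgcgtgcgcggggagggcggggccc
Cdc7: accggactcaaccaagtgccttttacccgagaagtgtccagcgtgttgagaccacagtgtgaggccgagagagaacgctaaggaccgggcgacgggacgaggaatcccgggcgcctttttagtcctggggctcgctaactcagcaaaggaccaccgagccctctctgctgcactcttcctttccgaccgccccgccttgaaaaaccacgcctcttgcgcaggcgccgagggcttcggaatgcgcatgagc
Counted from the start, the first base of the E2F form lay at -10 in Rfc3, at -138 in Cdc6 and at -185 in Uhrf1, and Uhrf1 held 2 CCAAT boxes between its E2F form and its start. Neither Pola2 nor Cdc7 held either motif in this window. Rfc3, Cdc6 and Uhrf1 were picked for their match, so its presence in them follows from the choice. Rrm2, Ccne1 and Cdt1, the called members that fell most, held no E2F form, while Dnmt1, which was not called, held 1.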

How the data were processed

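The authors' deposited raw table gave a linear intensity and a detection p-value per probe and array, per the file headers. RNA was labelled with the Ambion MessageAmp kit per the labels' protocols, and no label names the scanner. A second deposited table held quantile-normalized intensities of 17382 probes with the authors' ratio and p-values, per the file headers.

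Of 45273 raw probes, 3 with a detection p outside 0 to 1 were left out. Background was corrected by normexp from the detection p-values with an offset of 16, followed by quantile normalization and log2, in limma 3.58.1 and R 4.3.3. Normexp and the offset shrink folds of dim probes, and quantile normalization hides a shift of most genes. Names came from the platform annotation of the authors' probes, with symbols updated through RefSeq for 14927 of 14942. The probe with the highest mean stood for a gene among those detected at p under 0.05 on at least 4 arrays.

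Groups were compared with lmFit and eBayes, two-sided, and p-values were adjusted by Benjamini-Hochberg over 10096 genes, with 0.05 as the threshold. The number of arrays limits the precision, and the p-values reflect only how these samples vary, which may be technical. All measured members are named. From each of the further pathway lists, called genes are named up to 4 per direction by smallest p. Values on each array are given for the 12 called members with the largest difference and for Pcna, Mcm2, E2f1 and Ccne1. Foxp3, and further values on single arrays such as those of Cdc7, were picked after their values were seen. Members and lists were chosen with earlier results of these data known. The procedure was tested on simulated arrays. No sample label gives a batch.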

Additional observations from a re-analysis of the deposited data

Results flagged for a closer look

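In 88 groups of values (43 genes and their mean, in PC61 and in PBS), 3 genes had a PBS array far from the other 4, and chance alone flags about 1 in 20 groups. Orc6 was at 10.31 on PBS replicate 1, with the nearest array at 9.84. Rfc5 was at 8.84 on PBS replicate 2, with the nearest array at 9.20. Pole was at 6.81 on PBS replicate 3, with the nearest at 7.24. No PC61 array stood apart by this measure in any of the 43 genes or in their mean. The measure looks for a single array apart from the rest, so it cannot flag a low pair such as PC61 replicates 3 and 4.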

How the results depend on the processing

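All 43 members were below 0 in the fit of all arrays, in the 9 fits that left out 1 array and in most alternatives. The exceptions, none called, were Pola2 (0.0993) and Dnmt1 (0.021) with array weights, Pola2 (0.0575) without PC61 replicate 4 and PBS replicate 4 together, and Rpa3 (0.0598), Pola2 (0.241), Pold2 (0.126), Tk1 (0.0885), Dut (0.157) and Dnmt1 (0.0227) with the melanocyte covariate. Leaving out 1 array gave 1 to 37 members called lower, 0 called higher, a median from -1.089 to -0.6467, and 753 to 3754 genes called. Of all genes, 2.24% to 17.5% were called lower in those fits. The Pola2 difference then ran from -0.3788 to -0.01312. Without the 2 arrays together there were 8 members called lower and 1403 genes called in either direction, with 4.78% of all genes lower. The melanocyte covariate gave 0 members and 10 genes, with 0.0594% of all genes lower. Array weights gave 27 members and 4497 genes, with 22% of all genes lower, against 11.2% in the fit of all arrays. Other normalizations, backgrounds, filters, probe choices and priors gave 20 to 26 members, where 8.5% to 13.5% of all genes were called lower. Cyclic loess moved the median of all genes to 0.06, against -0.05, and split the calls into 858 lower and 1831 higher, against 1127 and 1552. It kept 20 of the 23 members. With the replicate block, 0 members and 0 genes were called. Same-numbered arrays showed no shared deviation (correlation across genes of -0.24, 0.01, 0.00 and -0.33). With so few pairs, and values centred within each group, this check cannot exclude pairing, which no label states. The causes of these shifts were not tested.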

Other observations

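Of the 43 members, 11 had more than 1 detected probe, and all of those probes were below 0. Some probes of a gene differed in size. The second probe of Tk1, the thymidine kinase, was at -1.16 (limma adjusted p = 0.0208 over all detected probes), while the probe that stood for the gene was at -0.80 (adjusted p = 0.142 on the same basis). The 3 probes of Lig1, the ligase, were at -0.86, -1.16 and -1.11, and all of them passed. Those of Gins2 were at -0.78, -0.23 and -0.46, and none passed. Rrm2 was at -1.68, -1.45 and -0.61, all past the threshold, and the last of these is the dimmest, near the lower end of the scale. All 4 probes of Rfc2 lay between -0.88 and -0.80.

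In the authors' deposited table, 23 of the 43 members had a Benjamini-Hochberg value under 0.05 and a ratio of PC61 to PBS under 1, and 0 had one over 1. Over all 17382 probes of that deposited table, 10.9% were past this value with a ratio under 1. The ratio for Rrm2 was 0.37 in the authors' deposited table, and for Pola2 it was 0.909.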
